A study of Mus musculus with 48 samples.

Results

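At stage E3.75 (days of embryonic development) the inner cell mass (ICM) of the mouse blastocyst holds precursors of the epiblast (pEPI), which forms the fetus, mixed with precursors of the primitive endoderm (pPrE), which forms the yolk sac endoderm. Profiles of 48 single ICM cells were made with Smart-seq2, which amplifies whole transcripts and carries no molecular identifiers. By the branches of the study's dendrogram, read by eye, 25 of these cells are pEPI and 23 are pPrE. The sets compared here are pEPI cells chosen by their own Gata6 level. In 10 of the 25 cells Gata6 stood at 50 CPM (a gene's count as a share of the cell's total count, scaled to 1000000) or more, and these are called Gata6-retained. In the other 15 it stood below 50 CPM, and these are called Gata6-low. The names describe a level at a single stage, since no cell was followed in time.

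Gata6 is a zinc-finger transcription factor needed for primitive endoderm, and Nanog is a homeobox factor of the epiblast. Early ICM cells carry both, and each factor is known to repress the programme of the other as the lineages separate. Epiblast precursors secrete FGF4, which acts through FGFR1 and FGFR2 and the ERK kinases to favour primitive endoderm. A pEPI cell with Gata6 is therefore a cell in which the marker of one lineage stands within the profile of the other.

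All cells share one background. The embryos came from natural matings of mice with an H2B-GFP cassette in the Pdgfra locus and C57BL/6JxCBA/J F1 hybrids, and were given no treatment. The sample titles call the cells WT, whereas by the study's methods the 3 embryos were positive for the reporter allele (PdgfraH2B-GFP/+). Trophectoderm was removed by immunosurgery, and ICMs were dissociated with Accutase and trypsin. The cells come from 3 embryos that no label tells apart, so they count as 1 sample. Cells are not replicates here, and the values carry neither p-values nor standard errors. SDs describe the spread between cells, and intervals of summed counts cover counting error only. Whether the reporter allele changes the Pdgfra level was not tested.

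Gata6 was highest in well E5 at 303 CPM and in E7 at 287 CPM. It stood at 165 CPM in D6, 143 in F1, 117 in B4 and 110 in E4. The remaining Gata6-retained cells were E2 at 74.3 CPM, E3 at 66.4, B2 at 56.8 and F3 at 56.5. Just below the threshold lay F4 and A7, each at 38.5 CPM, and the Gata6-low cells C2, A4, C1, A3, C4 and C3 followed between 18.7 and 26.9 CPM. D4 had 8.63 CPM, F8 0.959 and C8 0.925, and A2, A6, B1 and C7 had no Gata6 count. In the pEPI cells 3 counts correspond to 0.548 to 1.46 CPM, which is the upper limit that a count of 0 allows. The pPrE cells ranged from 19.8 to 350 CPM with a median of 174, so all 10 Gata6-retained cells lay within the range of pPrE cells, although only E5 and E7 exceeded its median. These values chose the sets and are given as a description only. The share of Gata6-retained cells was 10 of 25, or 40% (exact binomial 95% interval 21.1% to 61.3%, which treats cells as independent draws).

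The sets were unevenly spread over the wells. Y-linked counts, summed over Uty, Kdm5d, Ddx3y and Eif2s3y, reached 100 in all cells of wells A1 to C2 and E1 to F3 and in none of wells C3 to D8 and F4 to F8, which gives 4 runs of wells. All 7 pEPI cells of wells E1 to F3 were Gata6-retained. In wells A1 to C2 it was 2 of 10 pEPI cells, in C3 to D8 1 of 6, and in F4 to F8 0 of 2. Y-linked counts were present in 9 of 10 Gata6-retained cells and 8 of 15 Gata6-low cells. Those 9 cells are 7 of wells E1 to F3 and 2 of A1 to C2, while all 8 are of A1 to C2. Values among cells with Y-linked counts therefore set mostly one run of wells against another. For the wells E1 to F3 the Gata6 set and the run of wells cannot be told apart, and values without these wells (3 Gata6-retained cells, B2, B4 and D6, against all 15 Gata6-low cells) or only within A1 to C2 (2 against 8 cells) are given beside the results.

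**Figure D1:**
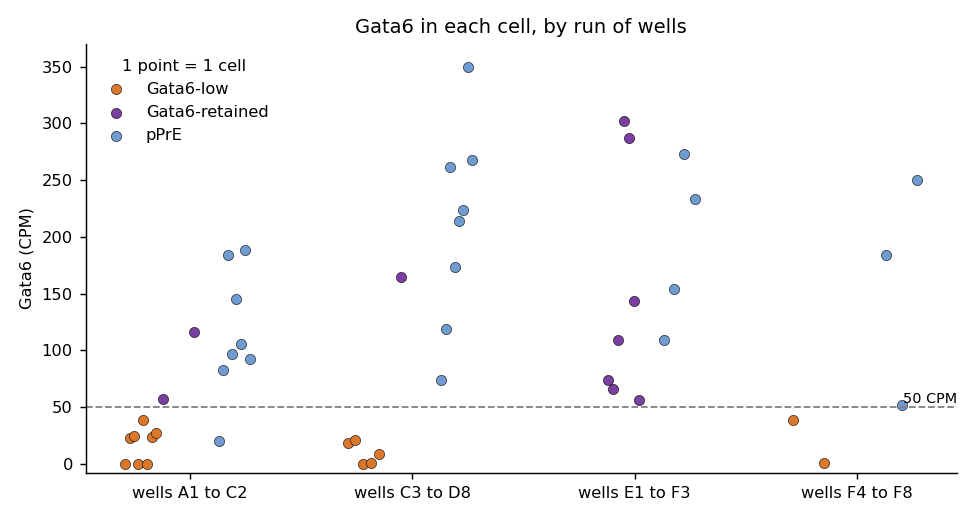
Gata6 in CPM (y axis) for each of the 48 cells, by the run of wells it came from (x axis). Orange points are the 15 Gata6-low pEPI cells, purple points the 10 Gata6-retained pEPI cells and blue points the 23 pPrE cells. The dashed line marks 50 CPM, and all 7 pEPI cells of wells E1 to F3 lie above it.

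The sets overlapped in depth. Total counts ran from 2052874 to 5097574 per Gata6-retained cell (median 3910483.5) and from 2318514 to 5470475 per Gata6-low cell (median 3751329), and the median cell had 10425 and 10244 genes with a count. Mitochondrial genes took a median of 7.30% and 6.59% of the counts. The rRNA gene CT010467.1 took a median of 9.05% in Gata6-retained cells (7.08% to 12.6%) and 6.66% in Gata6-low cells (3.66% to 10.2%), and a total without this gene and the mitochondrial genes kept both counts of genes below within 1.5-fold. Most defining trophectoderm markers were near 0 in both sets. Gata3 had a mean of 1.68 CPM in Gata6-retained cells and 0 in Gata6-low cells, Cdx2 1.51 and 0.529 CPM, Hand1 0.0451 and 2.27 CPM, and Krt7 0 and 1.10 CPM. Krt18 had 4.97 and 4.90 CPM, Gata2 3.20 and 10.3 CPM and Eomes 9.63 and 14.5 CPM, while Krt8 was present in both at 87.2 and 78.9 CPM.

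The comparison asks what else differs between pEPI cells with Gata6 at 50 CPM or more and those below, most of which still have Gata6 counts. For each gene the log2 ratio is that of the mean CPM plus a pseudocount of 1, Gata6-retained over Gata6-low, over genes with a mean of at least 20 CPM in the 25 cells. Only the rule's own gene, Gata6, was left out. Of 6055 such genes, 90 were at least 2-fold higher in Gata6-retained cells (1.49%) and 185 at least 2-fold lower (3.06%). The median log2 ratio over all of them was -0.07. The filter is a mean over 25 cells, of which 15 are Gata6-low and 10 Gata6-retained. A gene seen only in Gata6-low cells therefore passes at a lower set mean than a gene seen only in Gata6-retained cells. How far this shapes the difference between both counts was not tested. None of the 6055 genes separated the sets fully, either with all Gata6-retained cells above or with all of them below the Gata6-low cells. Whichever cell was left out, 88 of the 90 and 184 of the 185 genes kept their sign, and 32 and 93 stayed past 2-fold. These genes were chosen for ratios past 2-fold in the same cells, so keeping a sign is largely built in. The same holds for the counts below, which reuse part of the cells. Without the wells E1 to F3, 79 of the 90 and 182 of the 185 kept their sign, and 58 and 117 stayed past 2-fold. Within A1 to C2 the sign held for 74 and 157 and the 2-fold difference for 51 and 96. Among cells with Y-linked counts (9 against 8) the sign held for 90 and 159, and 59 and 77 stayed past 2-fold. This last comparison does not separate set from wells, as 7 of the 9 cells are of E1 to F3 and all 8 of A1 to C2.

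Nanog (chr6:122707489-122714633, GRCm38) was lower in Gata6-retained cells but present in every one. It ranged from 128 to 1160 CPM in these cells with a median of 392, and from 127 to 1702 CPM in Gata6-low cells with a median of 934. The means were 409 ± 301 CPM (SD, n = 10 cells) and 962 ± 533 CPM (SD, n = 15 cells), a log2 ratio of -1.23. Both ranges start at about the same level, and the Gata6-retained cell was the higher one in 20.7% of pairs of cells across the sets. The pPrE cells had a median of only 46.1 CPM, so Nanog in Gata6-retained cells was still well above that in most pPrE cells.

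The Nanog difference did not rest on wells E1 to F3 alone, but it was below 2-fold among cells with Y-linked counts, at a log2 ratio of -0.71. The log2 ratio was -1.45 without wells E1 to F3 and -1.09 within A1 to C2, where B2 and B4 had 388 and 236 CPM beside a median of 654 CPM in the 8 Gata6-low cells. The single Gata6-retained cell of wells C3 to D8, D6, had 429 CPM, below all 5 Gata6-low cells of that run, which had 739 to 1702 CPM. Nanog had 14115 counts summed over the 10 Gata6-retained cells and 55582 over the 15 Gata6-low cells. As a share of each set's summed total these are 372 CPM (exact Poisson 95% interval 366 to 379) and 956 CPM (948 to 964). The intervals treat reads as independent, although reads may be copies of one molecule, and leave out the spread between cells.

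Within the Gata6-retained set the cells with the most Gata6 were among the 3 with the least Nanog. E5 and E7 had 128 and 171 CPM of Nanog, and E4 had 163 CPM. The 4 cells with Gata6 between 56.5 and 74.3 CPM had 388 CPM in B2, 485 in E2, 538 in E3 and 1160 in F3. Across all 25 pEPI cells the rank correlation of Nanog with Gata6 was -0.63, as a description over cells that share embryos and wells.

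Fgf4 (chr7:144847367-144865243), the ligand that epiblast precursors secrete, followed the same direction. In Gata6-retained cells it ranged from 0 to 194 CPM with a median of 24.7, and in Gata6-low cells from 0 to 377 CPM with a median of 104. It had no count in E4, E7 and B4, and F3 alone held 45.2% of the summed CPM of the set. The means of 42.9 ± 58.2 CPM (SD, n = 10 cells) and 134 ± 113 CPM (SD, n = 15 cells) give a log2 ratio of -1.62, which was -2.31 without wells E1 to F3, -2.45 within A1 to C2 and -0.74 among cells with Y-linked counts. The median pPrE cell had 0.212 CPM.

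Prdm14 and Klf2, further factors of the naive epiblast, differed in how firm their values were. Prdm14 (chr1:13113457-13127163) had no count in 5 of 10 Gata6-retained cells and in 3 of 15 Gata6-low cells, with medians of 1.72 and 43.8 CPM. Its log2 ratio was -1.51, but E3 with 107 CPM held 63.9% of the summed CPM of the Gata6-retained cells. Among cells with Y-linked counts the ratio turned to 0.56, and without wells E1 to F3 it was -5.66, as B2, B4 and D6 had none. Klf2 had medians of 77.1 and 78.8 CPM, far above the 8.21 CPM of pPrE cells, and a log2 ratio of -0.42 that turned to 0.15 without wells E1 to F3.

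The list of pluripotency transcription factors, which also holds other genes such as Morc1, had 18 of 19 members past the filter. Of these, 0 were at least 2-fold higher and 4 at least 2-fold lower, which were Prdm14, Nanog, Morc1 and Sox2. Over all 6055 genes 1.49% were higher and 3.06% lower, which is the background for the counts of every list here. The lists are short, and their counts were not tested against it. The median log2 ratio of the pluripotency list was -0.33, against -0.07 for all genes, and it was 0.01 without wells E1 to F3. Sox2, a partner of Oct4, had medians of 13.7 CPM in Gata6-retained and 27.5 CPM in Gata6-low cells, with a log2 ratio of -1.14, or -1.35 without those wells, -0.97 without the cell C8 and -0.55 among cells with Y-linked counts. Morc1, a silencer of transposons in the germ line, had a log2 ratio of -1.30, which was -0.11 among cells with Y-linked counts. Pou5f1, which encodes Oct4 and marks both lineages at this stage, had 857 ± 132 CPM (SD, n = 10 cells) and 875 ± 130 CPM (SD, n = 15 cells). Esrrb had a log2 ratio of -0.39, Zfp42 -0.37, Klf4 0.08, Tbx3 0.33 and Dppa3 0.22, each short of 2-fold.

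**Figure D2:**
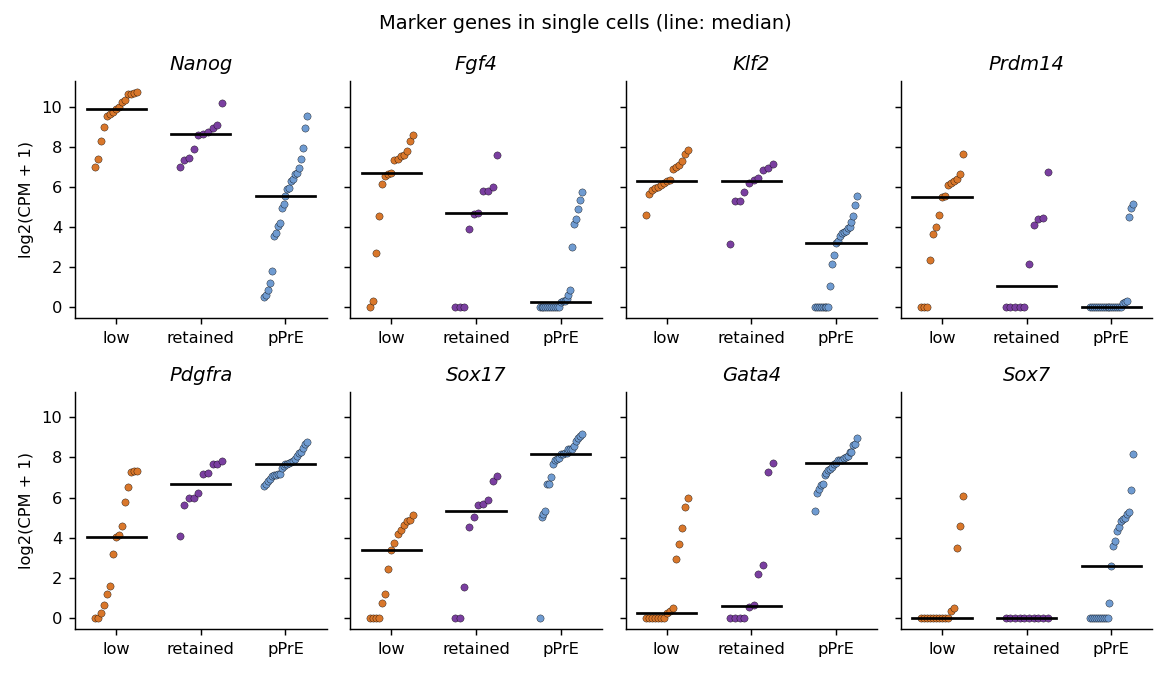
Level of 8 marker genes as log2(CPM + 1) (y axis) in each Gata6-low pEPI, Gata6-retained pEPI and pPrE cell (x axis, 15, 10 and 23 cells). Each point is a cell and each line the median, which for Nanog is 934 CPM in Gata6-low, 392 CPM in Gata6-retained and 46.1 CPM in pPrE cells. Gata4 is high in only 2 Gata6-retained cells and Sox7 is at 0 in all 10.

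Pdgfra (chr5:75152292-75198215), the receptor that marks primitive endoderm, was higher in Gata6-retained cells. It was at 10 CPM or more in all 10 of them, from 16.2 to 225 CPM with a median of 109, and in 8 of 15 Gata6-low cells, from 0 to 160 CPM with a median of 15.5. The log2 ratio was 1.35, and it was 1.17 without wells E1 to F3, 0.87 within A1 to C2 and 0.68 among cells with Y-linked counts. The level depended on the wells within the Gata6-low set too, since its 7 cells of wells C3 to D8 and F4 to F8 had at most 22.9 CPM while those of A1 to C2 had a median of 72.7 CPM. D6, the Gata6-retained cell of wells C3 to D8, had 16.2 CPM. The pPrE cells had a median of 201 CPM.

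Sox17 and Gata4, transcription factors that act after Gata6 in primitive endoderm, were higher on average, but through wells E1 to F3. Sox17 had a median of 40.5 CPM in Gata6-retained cells (0 to 133 CPM) and 9.59 CPM in Gata6-low cells (0 to 33.8 CPM), and a log2 ratio of 1.85. B2 and B4 had no Sox17 count and D6 had 31.8 CPM, so the ratio was -0.16 without wells E1 to F3 and -3.79 within A1 to C2. Gata4 was at 10 CPM or more in only 2 of 10 Gata6-retained cells, E7 at 212 CPM and E5 at 156 CPM, and in 4 of 15 Gata6-low cells. Its log2 ratio of 1.82 turned to -3.20 without the wells E1 to F3 and was 0.82 without E7 alone. Those 2 cells are also the ones with the most Gata6, and the median of the set was 0.538 CPM, beside 0.206 CPM in Gata6-low and 208 CPM in pPrE cells.

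Sox7, the last of these factors to appear in primitive endoderm, had no count in any Gata6-retained cell. It was at 10 CPM or more in 3 of 15 Gata6-low cells, and its summed counts in those 15 cells were 6.55 CPM of their summed total. Against a floor of 3 counts over the set it was at least 82.8-fold lower in Gata6-retained cells. The Gata6-low cell B1 held 62.5% of those counts, and without it the bound was 33.1-fold.

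Of 10 listed primitive endoderm regulators 6 passed the filter. Of these, 3 were at least 2-fold higher (Sox17, Gata4 and Pdgfra) and 1 lower (Hnf4a), beside 1.49% and 3.06% of all genes. The list median was 0.63, and -0.17 without wells E1 to F3. Hnf4a, a nuclear receptor of visceral endoderm, had no count in 6 of 10 and 8 of 15 cells, and its log2 ratio of -1.44 was -0.30 without those wells and -0.65 without the cell F8. Foxa2, below the filter, had a mean of 0.0281 CPM in Gata6-retained cells and no count in Gata6-low cells. Matrix and surface genes of primitive endoderm had 14 of 20 members past the filter, 1 higher (Cubn, an endocytic receptor) and 1 lower (Nid2, a basement membrane linker), with a median of 0.27. The log2 ratio of Cubn was 1.51, or 0.95 without the cell B2. Laminin chains differed among themselves. Lama1 had a log2 ratio of 0.99 and Lamb1 of 0.64, while Lamc1 had -0.10, and their means in Gata6-retained cells were 43.5, 235 and 59.3 CPM beside 319, 720 and 302 CPM in pPrE cells.

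The FGF pathway was measured by 3 of 9 ligand and receptor genes, with Fgf4 lower and Fgfr1 and Fgf10 short of 2-fold. Fgfr1 was higher at 88.9 ± 41.6 CPM (SD, n = 10 cells) against 50.6 ± 27.2 CPM (SD, n = 15 cells), a log2 ratio of 0.80 that was 0.82 without wells E1 to F3. Fgfr2, the receptor associated with primitive endoderm, was below the filter, with 10 CPM or more in 5 of 10 Gata6-retained cells and 1 of 15 Gata6-low cells. Its means were 21.3 and 3.94 CPM, beside 107 CPM in pPrE cells, and B2 at 86.6 CPM held 40.8% of the summed CPM of the Gata6-retained cells.

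Of 15 ERK target and feedback genes 7 passed, with 1 higher and 0 lower and a median of 0.00. Below the filter, Dusp4 had a log2 ratio of 2.11 and Spred1 of 1.34, while Spry4 had -1.12 and Ier3 -2.16. Dusp4 had means of 32.1 and 6.67 CPM, and its ratio was 0.51 without wells E1 to F3 and -2.85 within A1 to C2. Dusp6, an ERK phosphatase that ERK signalling induces, had medians of 55.2 CPM in Gata6-retained and 20.9 CPM in Gata6-low cells. Its log2 ratio was 1.22, and 1.69 without wells E1 to F3, and it was 0.91 without the cell E3. Spry2, a feedback inhibitor, had a log2 ratio of 0.43, and Dusp1, which dissociation also induces, had -0.96, which was -0.09 without those wells.

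Nodal and BMP pathway genes all had negative log2 ratios, in 8 of 8 members that passed of 16 listed, with 0 higher, 2 lower and a median of -0.55, also with Lefty2 at its bound. Of all 6055 genes 59.0% had a negative ratio. Among cells with Y-linked counts 2 of the 8 were negative and 5 positive. Lefty2 and Lefty1, secreted Nodal inhibitors with partly shared sequence, were the 2 lower genes. Lefty2 had no count in any Gata6-retained cell and 13.6 to 599 CPM in the 5 Gata6-low cells C3, C4, C7, C8 and F4. Its summed level was at least 1622-fold lower against the floor of 3 counts, for counting error of reads only. Without C4, which held 43.9% of the counts, the bound was 1005-fold. Lefty1 had 12.2 CPM in E4 and no count in the other 9 Gata6-retained cells, and 23.8 to 568 CPM in C4, C7 and C8. Nodal itself was above 50 CPM only in C3, C4 and C8. None of these Gata6-low cells has Y-linked counts, so among cells with Y-linked counts the Lefty2 ratio was 0.00 and that of Lefty1 1.16, and set and wells cannot be told apart for these genes. The remaining pathway members, such as Tdgf1, Gdf3 and Bmp4, had log2 ratios of -0.31, -0.36 and -0.63, and of 0.15, 0.07 and 0.45 among cells with Y-linked counts.

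Formative epiblast genes, which come up around implantation, had 4 of 12 members past the filter and 1 higher, with a median of 0.33. That gene was Dnmt3a, a de novo DNA methyltransferase, with medians of 59.0 CPM in Gata6-retained, 3.33 CPM in Gata6-low and 166 CPM in pPrE cells. Its log2 ratio was 1.72, and 1.31 without wells E1 to F3. D6 had no Dnmt3a count, so that the ratio among cells without Y-linked counts was -2.89. Otx2, below the filter, had 10 CPM or more in 1 of 10 and 7 of 15 cells.

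**Figure D3:**
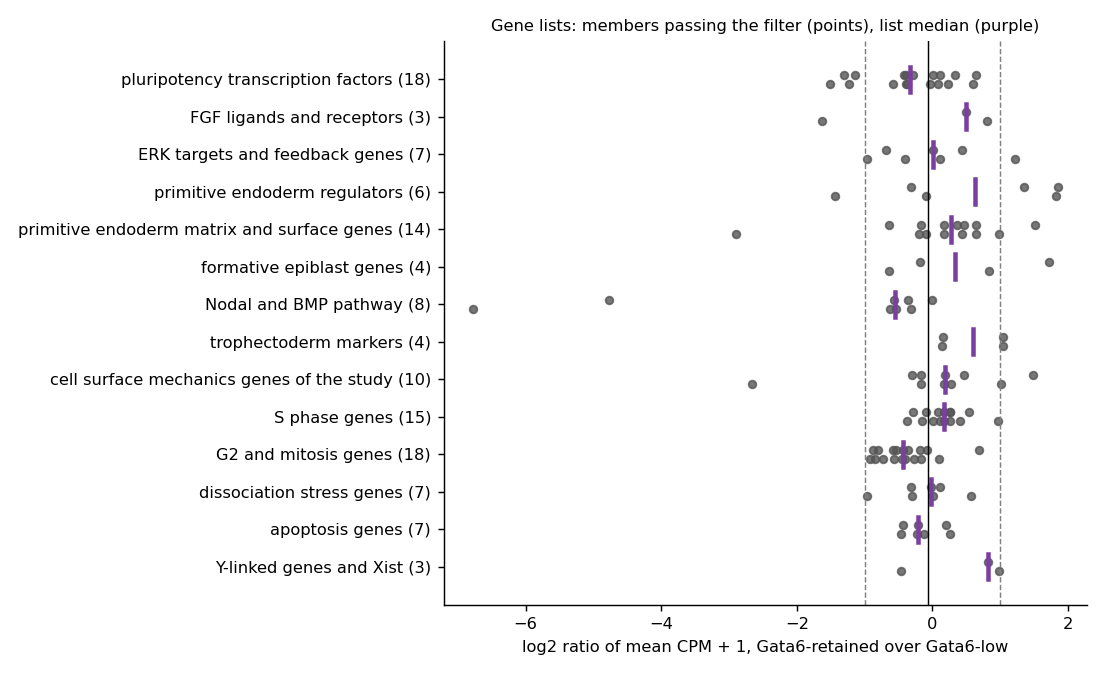
Log2 ratio of the mean CPM + 1, Gata6-retained over Gata6-low (x axis), of the members of 14 gene lists that passed the filter (y axis, number of members in brackets). Points are genes, purple lines list medians, the black line the median of all 6055 genes at -0.07 and dashed lines 2-fold. All 8 Nodal and BMP pathway genes and 16 of 18 G2 and mitosis genes lie below 0, as do 59.0% of all genes.

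Genes of cell surface mechanics, a list taken from the study of these cells and so not independent evidence, had 10 of 12 members past the filter. Of these, 2 were higher and 1 lower, beside 1.49% and 3.06% of all genes, with a median of 0.18. Cdh2, which encodes N-cadherin, had 22.8 to 59.1 CPM in Gata6-retained cells with a median of 37.9, and 0.588 to 48.1 CPM in Gata6-low cells with a median of 18.5. The Gata6-retained cell was higher in 88.7% of pairs, and the log2 ratio was 1.01, or 1.13 without wells E1 to F3, 1.34 within A1 to C2 and 0.92 without the cell A6. The pPrE cells had a median of 11.8 CPM, below both pEPI sets. Cdh3, which encodes P-cadherin, was lower, with medians of 0.117 and 34.2 CPM and a log2 ratio of -2.66. Its ratio turned to 0.58 within A1 to C2, where B2 and B4 had 23.8 and 27.3 CPM. Msn, which encodes moesin, a linker of membrane and actin, had a log2 ratio of 1.48, which was 0.58 without wells E1 to F3. Ezr and Cdh1 had log2 ratios of 0.27 and 0.18.

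Of 15 trophectoderm markers 4 passed, with 2 higher, 0 lower and a median of 0.60, beside 1.49% higher and 3.06% lower over all genes. Tspan8 and Fabp3 were the higher ones, at log2 ratios of 1.04 each. Both ratios dropped below 2-fold on leaving out 1 cell, to 0.70 without E2 for Tspan8 and to 0.51 without B2 for Fabp3. The summed level of the list ran from 137 to 768 CPM in Gata6-retained cells and from 78.5 to 659 CPM in Gata6-low cells, and its part in the other results was not tested. Krt8 had a log2 ratio of 0.14. Fabp3 and Krt8 share sequence with other copies, so their counts are uncertain.

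No listed cell cycle gene that passed the filter reached a 2-fold difference. Among 15 of 16 S phase genes that passed, 0 were higher and 0 lower, with a median of 0.17 and Ccne1, which encodes cyclin E1, at 0.97. All 18 G2 and mitosis genes passed, with 0 higher, 0 lower and a median of -0.43, and 16 of 18 had a negative ratio, beside 59.0% of all genes, or 15 of 18 among cells with Y-linked counts. Bub1, a spindle checkpoint kinase, had 46.5 to 85.7 CPM in Gata6-retained cells with a median of 68.6, and 13.3 to 196 CPM in Gata6-low cells with a median of 120. Its log2 ratio was -0.87, and the same without wells E1 to F3, but -0.42 within A1 to C2 and -0.51 among cells with Y-linked counts. The median of the G2 and mitosis list was -0.24 both without wells E1 to F3 and within A1 to C2. The summed level of the list had medians of 1731 and 2501.5 CPM and ranges that overlapped widely, from 1516 to 4515 and from 1464 to 6086 CPM. Dissociation stress genes (7 of 14 passed, median -0.02) and apoptosis genes (7 of 15 passed, median -0.22) had 0 higher and 0 lower members each. Atf3, a stress gene below the filter, had no count in the 10 Gata6-retained cells and 10 CPM or more in 6 of 15 Gata6-low cells. Of the list of Y-linked genes and Xist 3 of 5 passed, with 0 higher, 0 lower and a median of 0.82 that was 0.19 without wells E1 to F3.

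Of all genes, the 10 protein-coding genes highest and the 10 lowest in Gata6-retained cells were taken by the smallest log2 ratio over leaving out each cell, with the same sign among cells with and without Y-linked counts. Sox17 and Pdgfra are among the higher ones. Pde8a (chr7:81213596-81334533), a phosphodiesterase that degrades cyclic AMP, stood out among the named genes in how far the sets lay apart. It had 16.4 to 83.3 CPM in Gata6-retained cells with a median of 44.5, and 0 to 43.5 CPM in Gata6-low cells with a median of 6.02, and the Gata6-retained cell was higher in 92.0% of pairs. Over all genes that passed this share ran from 6.00% to 92.0%. Its log2 ratio was 1.92, or 2.26 without wells E1 to F3 and 1.71 within A1 to C2. The median pPrE cell had 0.849 CPM.

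The higher genes differed in their level in pPrE cells. Plod2, a lysyl hydroxylase that modifies collagen, had medians of 113, 27.3 and 179 CPM in Gata6-retained, Gata6-low and pPrE cells, and log2 ratios of 1.63 in all wells, 1.51 without E1 to F3 and 1.04 among cells with Y-linked counts. Gcnt1, an enzyme of O-glycan branching, had medians of 71.4, 15.3 and 108 CPM and a log2 ratio of 1.48, or 0.97 among cells with Y-linked counts. Lhfpl2 had 36.6, 0 and 62.0 CPM and a log2 ratio of 1.76, which was 0.62 within A1 to C2. Uchl1, a deubiquitinase of neurons and germ cells, had medians of 41.3, 0 and 0 CPM and the highest log2 ratio of the set at 2.34, or 1.66 within A1 to C2. Gm38100 had 56.9, 3.82 and 0 CPM with a log2 ratio of 1.71, or 0.56 within A1 to C2 and 0.86 among cells with Y-linked counts. Runx1t1, a transcriptional corepressor, had medians of 95.8, 6.15 and 9.37 CPM and a log2 ratio of 1.61, which was 0.05 within A1 to C2. Satb1, a chromatin organizer, had a log2 ratio of 1.60 that turned to -0.33 without wells E1 to F3 and was 0.93 among cells with Y-linked counts.

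Some of the lower genes had their highest values in a few wells. Hspb1, a small heat shock protein, had no count in 8 of 10 Gata6-retained cells and 7 of 15 Gata6-low cells, and 128 to 341 CPM in C3, C4, C7 and C8. It shares 44% of its 100-base windows with a pseudogene copy, so its counts are uncertain. Nid2 had the same 4 cells on top, at 66.4 to 185 CPM. The log2 ratios were -4.10 for Hspb1 and -2.90 for Nid2, but without the cells of well letter C they were -0.60 and -0.03. Xlr3a, at -2.98, belongs to a family of near-identical X-linked copies and is uncertain.

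Other lower genes were detected in more of the Gata6-low cells. Zfp367, a zinc-finger factor, was at 10 CPM or more in 13 of 15 Gata6-low cells and 4 of 10 Gata6-retained cells, with medians of 38.2 and 6.64 CPM and a log2 ratio of -2.0, or -3.89 without wells E1 to F3, -3.36 within A1 to C2 and -1.76 among cells with Y-linked counts. Abcg1, a cholesterol exporter, had medians of 41.3 and 6.50 CPM and a log2 ratio of -2.51. Mycn, a proto-oncogene of pluripotent cells, had no count in 6 of 10 Gata6-retained cells and in 2 of 15 Gata6-low cells, with a log2 ratio of -2.48. Myo10, an unconventional myosin of filopodia, had medians of 2.48 and 21.5 CPM and a log2 ratio of -2.44, and Rhpn2 medians of 3.36 and 92.3 CPM and -2.53. Within A1 to C2 the log2 ratios were -0.44 for Abcg1, -4.45 for Mycn, -3.71 for Myo10 and -1.91 for Rhpn2. Among cells with Y-linked counts they were -1.25, -0.82, -1.41 and -1.13, so that of Mycn was below 2-fold. Mycn had medians of 0 CPM in Gata6-retained, 37.1 CPM in Gata6-low and 39.8 CPM in pPrE cells. The ranges overlapped, at 0 to 38.4, 0 to 308 and 0 to 467 CPM. The level differed by run, with a median of 9.76 CPM in the Gata6-low cells of A1 to C2 and 106 CPM in those of C3 to D8. The Gata6-retained cells of E1 to F3 had a median of 12.2 CPM.

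**Figure D4:**
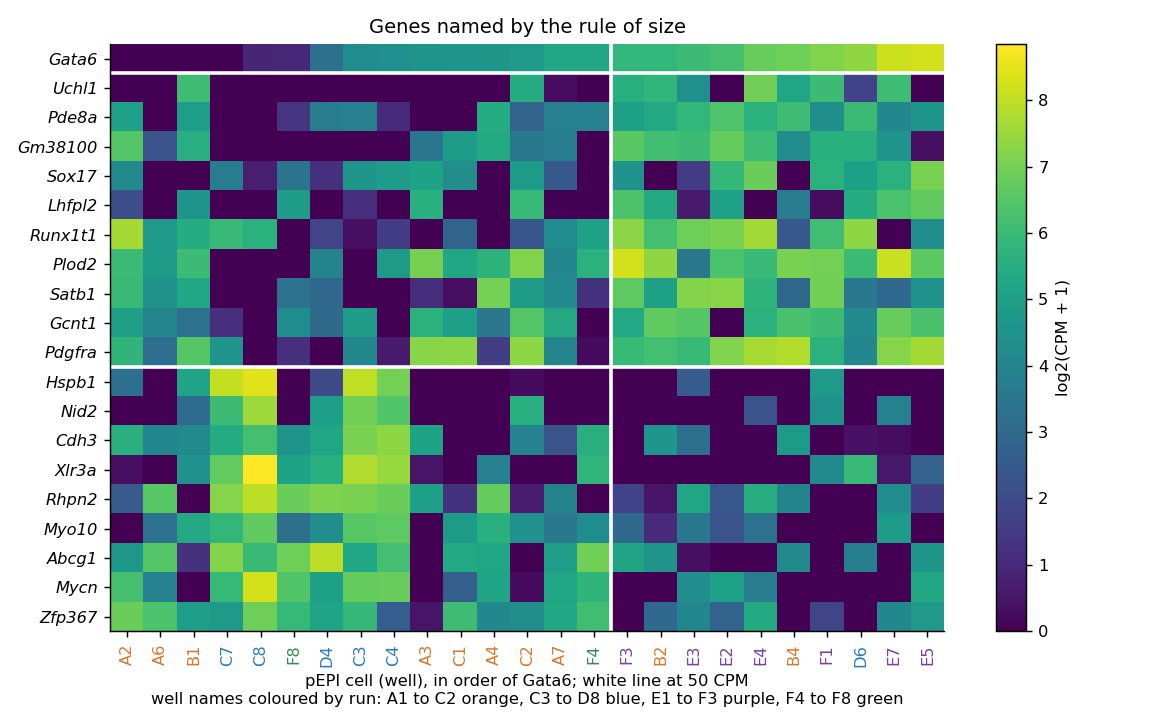
Level as log2(CPM + 1) (colour) of Gata6 and of the higher and lower genes described here (y axis) in the 25 pEPI cells in order of Gata6 (x axis, well names coloured by run of wells). The white vertical line lies at 50 CPM of Gata6. Pde8a is at 16.4 CPM or more in every cell to its right, and Hspb1 and Nid2 are brightest in C3, C4, C7 and C8 to its left.

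The wells E1 to F3 moved some genes and not others. Without them the log2 ratios of Nanog, Fgf4, Pdgfra, Cdh2, Pde8a, Plod2, Dnmt3a and Dusp6 kept their sign and stayed past 2-fold, while those of Sox17, Gata4 and Satb1 turned negative. The 3 Gata6-retained cells left in this comparison include 1 cell without Y-linked counts. Among cells with Y-linked counts, where set and run of wells largely coincide, the ratios of Nanog, Fgf4 and Pdgfra were below 2-fold.

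**Figure D5:**
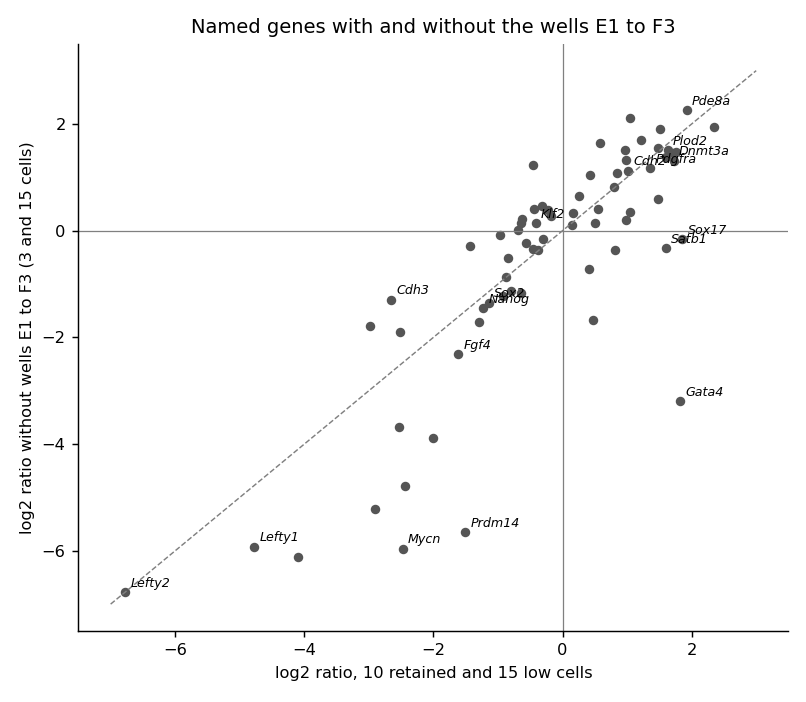
Log2 ratio of named genes that passed the filter, Gata6-retained over Gata6-low, in all 25 pEPI cells (x axis) and without wells E1 to F3 (y axis, 3 against 15 cells). Each point is a gene and the dashed line marks equal values. Gata4 lies farthest below the line among genes with a positive ratio, at 1.82 and -3.20.

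By their overall profile the Gata6-retained cells stayed with the pEPI cells. Over 372 variable genes other than Gata6, the first principal component held 15.5% of the variance. It ran from -10.3 to -0.075 in Gata6-retained cells with a median of -5.96, from -9.81 to -1.0 in Gata6-low cells with a median of -7.60, and from 1.07 to 12.8 in pPrE cells. The branches were drawn from these same cells, so this is a description. The median correlation between pairs of cells was 0.10 within the Gata6-retained set, 0.125 within the Gata6-low set and 0.0958 between them, against -0.150 between Gata6-retained and pPrE cells. The most similar cell of a Gata6-retained cell was Gata6-low for 7, Gata6-retained for 3 and pPrE for 0 of the 10 cells. The Gata6-low set is the larger of both pEPI sets, at 15 cells against 10, so its size alone favours it in this count.

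These correlations differed by run of wells at least as much as by set. Pairs of pEPI cells from one run had a median correlation of 0.208 within a set and 0.133 across sets, and pairs from different runs 0.10 and 0.0714. The values share library preparation and depth and are descriptive.

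Some cells lay between the groups. Each cell was compared with the mean of the pPrE cells and with that of the other Gata6-low cells, and the difference of both correlations was above 0 in 2 of 10 Gata6-retained cells, in none of 15 Gata6-low cells and in all 23 pPrE cells. The 2 cells were E7 at 0.095 and E5 at 0.022, which had the most Gata6, the only Gata4 values of the set at 10 CPM or more, and the first component scores nearest to pPrE. The median was -0.603 in Gata6-retained and -0.777 in Gata6-low cells. Wells E1 to F3 hold 7 of the 10 Gata6-retained cells, E5 and E7 among them. They also hold 4 pPrE cells but 0 Gata6-low cells. These 7 cells thus share a run only with cells of the pPrE mean, while every Gata6-low cell shares one with cells of both means. Set and run of wells cannot be told apart in this difference. E3 and F1 stood at -0.904 and -0.890, among the lowest of all pEPI cells, although F1 had 143 CPM of Gata6.

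By the same difference some Gata6-low cells lay nearer to pPrE than the rest of their set, though all stayed below 0. A3, C2 and C1, with 23, 26.9 and 23.8 CPM of Gata6, had differences of -0.024, -0.178 and -0.314, the 3 nearest to pPrE of that set. Their Nanog levels were 127, 167 and 307 CPM, the 3 lowest of the 15, and their Fgf4 levels were 0, 5.62 and 0.246 CPM. Their Pdgfra levels, 155, 160 and 159 CPM, were the 3 highest of the 15. In Fgf4 and Pdgfra these cells lay within the range of the Gata6-retained cells, as C1 and C2 did in Nanog, while A3 lay just below it. All come from wells A1 to C2. In the other direction F3, just above the threshold, had 1160 CPM of Nanog and 194 CPM of Fgf4, above the Gata6-low medians of 934 and 104 CPM.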

How the data were processed

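ICM cells of mouse blastocysts were profiled singly by Smart-seq2. The deposited values are raw counts of 49671 genes in 48 cells, which the authors made with htseq-count on mm10 alignments and Ensembl 87 genes after they dropped libraries under 500000 mapped reads or with uneven gene body coverage. The submitters' processing notes name STAR and HTSeq. CPM is a count divided by its cell's total, times 1000000, without gene length, so levels were not compared between genes. Without molecular identifiers, reads may be copies of one molecule. Gene names, positions and biotypes come from GENCODE M21 (GRCm38).

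The cells were grouped by the branches of the study's dendrogram and by Gata6 at 50 CPM. The members and the lists were chosen with earlier results of these data known. Named genes are the markers, up to 4 per list with the largest absolute log2 ratio past the filter, and 10 higher and 10 lower genes by the rule of size given with them, of which 1 lower gene is not reported here. Genes and cells named outside it (such as Fgfr2, Otx2, Atf3, Nodal, Pou5f1, and the cells A3, C1 and C2) were chosen after their values were seen. Genes counted as variable above 0.25 on the natural log scale of CV squared. The study tested cells with scde, which was not repeated because cells are not replicates. The steps were tested on simulated data. Alternatives were the Gata6 threshold, pseudocount, filter, summary, library size, thinning and leaving out cells. The wells E1 to F3, A1 to C2, the total without rRNA and mitochondrial genes and the fold bounds without the cell with the most counts were added as alternatives after the data had been seen. Tools were pandas 2.3.3 and numpy 2.4.6 under Python 3.11.15, with scipy 1.17.1 for intervals and matplotlib 3.10.9 for plots.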

Additional observations from a re-analysis of the deposited data

Results flagged for a closer look

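In 17 of 76 values tested, the highest or lowest of the 10 Gata6-retained cells lay far from the other cells by Dixon's ratio, the gap to the nearest cell divided by the range of the set. Chance marks about 1 in 20 groups, and levels of single cells are skewed toward a few high cells. In all 17 the far cell was the highest one.

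F3, just above the Gata6 threshold, stood apart for Nanog (ratio 0.603, 1160 CPM), Fgf4 (0.671, 194 CPM) and Mcm3, a replication helicase subunit (0.469, 416 CPM). E3 did so for Prdm14 (0.804, 107 CPM) and Dnmt3a (0.485, 160 CPM).

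D6, the 1 Gata6-retained cell without Y-linked counts, stood apart for Xist (0.994, 277 CPM), Hnf4a (0.770, 73.5 CPM), Dusp1 (0.735, 543 CPM), Xlr3a (0.724, 63.2 CPM), Bmp4 (0.687, 352 CPM), Ier2 (0.672, 393 CPM) and Pcsk6 (0.467, 72.4 CPM).

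The other far cells were E4 for Lefty1 (1.00, 12.2 CPM), F1 for Hspb1 (0.815, 25.8 CPM), E7 for Myo10 (0.620, 28.1 CPM), E5 for Plk1, a mitotic kinase (0.612, 315 CPM), and B2 for Mdm2, a regulator of p53 (0.511, 134 CPM).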

How the results depend on the processing

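Most ratios past 2-fold kept their direction. Of 1680 alternative values for named genes, 23 changed the sign of a ratio past 2-fold. Sign changes of smaller ratios were not counted among the 23, although the 1680 values include such genes. Of 398 list medians, 389 moved by less than the spread of the list. The counts of 90 higher and 185 lower genes depended most on the filter and on the cells. They were 385 and 627 at a mean CPM of 5 or more, 5 and 13 at 100 or more, and 1355 and 1782 over every gene with a count in a pEPI cell. With a pseudocount of 10 they were 43 and 70, with median CPM 257 and 326, and with the mean of log2 values 373 and 379. Only cells without Y-linked counts gave 438 and 1244, wells A1 to C2 alone 383 and 896, leaving out wells E1 to F3 216 and 609, and leaving out letter E 157 and 333. The higher genes numbered 168 among cells with Y-linked counts, 156 without letter A and 179 without letter C, and the lower ones 338 without cells of Gata6 between 25 and 100 CPM. Sets as small as 1 against 7 cells give larger ratios by construction.

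List medians that moved were those of pluripotency factors (0.014 without wells E1 to F3, 0.10 in A1 to C2), primitive endoderm regulators (-0.57 without letter E, -2.63 in A1 to C2) and Y-linked genes and Xist (2.43 with the mean of log2 values). Among cells without Y-linked counts they were -2.10 for formative, -2.43 for trophectoderm, 0.71 for stress and -1.02 for apoptosis genes.

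Among smaller ratios, signs turned for example for Klf2 (0.15), Bmp4 (0.22), Myh10 (-1.67) and Cdc6 (-0.73) without wells E1 to F3. Among cells without Y-linked counts they turned for example for Dusp1 (0.71), Krt8 (-4.95) and Rrm2 (-0.95). Signs of ratios past 2-fold changed as follows. Without wells E1 to F3 the log2 ratio was -0.16 for Sox17, -3.20 for Gata4 and -0.33 for Satb1. In wells A1 to C2 it was -3.79 for Sox17, -3.43 for Gata4, -2.85 for Tspan8, 0.58 for Cdh3 and -0.91 for Satb1. Among cells without Y-linked counts it was -2.93 for Gata4, 0.41 for Hnf4a, -0.47 for Cubn, -2.89 for Dnmt3a, -6.31 for Fabp3 and -0.35 for Msn. Among cells with them it was 0.56 for Prdm14 and 1.16 for Lefty1. At a Gata6 threshold of 100 CPM it was -0.33 for Tspan8, -0.31 for Fabp3, -0.20 for Msn and -0.083 for Satb1. Leaving out letter E gave -3.18 for Gata4, letter C 1.12 for Lefty1 and letter B -0.15 for Fabp3. The causes were not tested. No paired analysis was possible because the labels give no replicate numbers. With 25 cells of 3 embryos, neither the spread between embryos nor that between wells can be estimated.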
